A study of Homo sapiens with 12 samples.

Results

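The genes described here encode chromatin remodellers and histone modifiers. They were picked by the family name in the symbol from the 17520 genes of the deposited expression table, as 73 genes of 7 families: 9 CHD genes (CHD1 to CHD9), 10 ARID, 13 SMARC, 7 BRD, 18 KDM, 4 KMT2 and 12 SETD genes. The material was HEK293E, an established line derived from human embryonic kidney cells. All cells were kept without serum overnight and then received insulin at 200 nM for 30 h, and 1 arm was first given Torin1 at 250 nM, an inhibitor of the kinase mTOR. Both arms therefore carry the starvation and the insulin, and no arm without insulin was analysed here. The 12 samples formed 4 groups of 3: input mRNA and miCLIP libraries for insulin alone (called insulin) and for insulin after Torin1 (called Torin1). miCLIP maps N6-methyladenosine (m6A): RNA is crosslinked to an anti-m6A antibody, and the adenosines it touched are recognised by substitutions in the reads. The labels' protocols call the replicates biological but do not say that each was a separate culture, so p-values speak of the spread among these samples, part or all of which may be technical.

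Chromatin remodellers use ATP to slide, eject or exchange nucleosomes, and their engines belong to the SNF2 (SMARCA), ISWI, CHD and INO80 classes. Histone modifiers act as writers such as the KMT2 and SETD1 enzymes, which methylate histone H3 on lysine 4, erasers such as the KDM demethylases, and readers such as the bromodomain proteins, which bind acetylated lysines. mTOR is a kinase that couples nutrients and insulin signalling to protein synthesis and growth. m6A is the most abundant internal modification of mRNA and is placed in the sequence context called DRACH, in which D excludes C, R is a purine and H excludes G.

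Expression was given in the authors' normalized units, rounded to whole numbers. Library totals were 12424643 to 12528454 units in the insulin libraries and 11418114 to 11438881 units in the Torin1 libraries, and these totals do not give the sequencing depth. Of 7 kidney epithelial markers 4 passed the filter on low values, CDH1, LHX1 and EYA1 among them, and PAX2 and CDH16 did not, while PAX8 was not found. Their sum was 1457 to 1563 units with insulin and 991 to 1040 units with Torin1. Of 4 neural markers 3 passed (NEFM, NEFH and ENO2), with sums of 617 to 729 and 331 to 370 units. Blood markers summed to 104 to 121 units with insulin and 0 to 10 units with Torin1, and 4 fibroblast and endothelial markers to 188 to 238 and 527 to 547 units. The part of these shifts in the results was not tested. In bulk mRNA, fewer cells of a kind and less mRNA per cell cannot be told apart.

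Of the 73 genes, 71 reached at least 10 units in at least 3 libraries and were tested, and ARID3C and KDM5D were not. A gene was called when limma's Benjamini-Hochberg adjusted p, taken over all 13842 tested genes, was below 0.05. With Torin1, 23 of the 71 were called higher and 37 lower, and 11 were not called. Over all tested genes 43.4% were called higher and 42.5% lower. Most tested genes were therefore called in one direction or the other in these libraries, and the shares of the 71 chromatin genes were 32.4% higher and 52.1% lower. The median log2 fold change of the 71 genes was -0.11, against 0.02 over all tested genes. The 3 insulin and 3 Torin1 values did not overlap for 22 genes that were higher and 37 that were lower, where 43.5% and 42.8% of all tested genes did not overlap in those directions.

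A stricter limma test asked whether the change was beyond 1.5-fold, and 8 chromatin genes passed it upwards and 16 downwards. Among all tested genes 25% and 22.5% passed. The matching shares of the 71 genes were 11.3% and 22.5%, so the falls sit at the level of the whole table. How the libraries are scaled bears on this split. As the authors scaled the values, 61.7% of the called chromatin genes were lower, against 49.5% of all called genes. With libraries scaled to equal totals the shares were 52.6% (27 higher and 30 lower) and 44.1%. With quantile normalization they were 50% (29 and 29) and 50.3%, so the chromatin genes no longer lay above the whole table. Equal totals moved the median of all genes to 0.14, and the chromatin genes' median was then 0.01, still below it. The number lower beyond 1.5-fold fell to 10 with quantile normalization, with 11 higher. Across 12 alternatives, 44 genes kept both direction and call, of which 28 were lower and 16 higher. The other 27 had a log2 fold change of at most 0.33 in size, as in CHD7, except SETD9 at 0.71. Calls that depended on the scaling belonged to such genes. BRD3 was called higher with equal totals (0.16, limma adjusted p = 0.000905) and quantile normalization (0.29, 5.66e-07), and so was KDM6A (0.14, 0.0142, and 0.17, 0.00371). SMARCA2 (0.17, 0.00551) and ARID5A (0.37, 0.0124) were called higher with equal totals alone. BRD9 lost its call in both scalings, at -0.06 (limma adjusted p = 0.231 and 0.234). KDM4C lost it with equal totals (0.249), where SETD6, SMARCAD1 and SMARCC2 lost theirs too, and ARID4B (-0.04, 0.376) and CHD7 (-0.05, 0.224) lost it with quantile normalization. In that scaling SMARCA4 (0.20, limma adjusted p = 9.96e-05), SMARCAD1 (0.16, 0.000184) and SMARCC2 (0.14, 0.000595) turned from called lower to called higher. KDM5B (0.22, 4.01e-05) and SETD5 (0.22, 2.87e-05), not called as deposited, were called higher there.

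Some of these small calls rested on single libraries. Without insulin replicate 1 limma's adjusted p became 0.0654 for CHD9, 0.0844 for KDM4B and 0.356 for SMARCA4. Without insulin replicate 2 it became 0.0521 for KDM4B, 0.061 for KDM4C and 0.0676 for SETD6. Without insulin replicate 3 it became 0.0896 for ARID1A, 0.132 for ARID2, 0.0629 for CHD3 and 0.0919 for SMARCD1. Without Torin1 replicates 1, 2 or 3 in turn, ARID1A, CHD9, KDM4B, KDM4C, SETD6 and SMARCA4 also lost the call at least once, at limma adjusted p-values of 0.058 to 0.144. ARID3A, ARID5A, BRD7 and SETD5 gained a call when 1 library was left out. No gene with a log2 fold change above 0.33 in size gained or lost its call in this way.

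**Figure D1:**
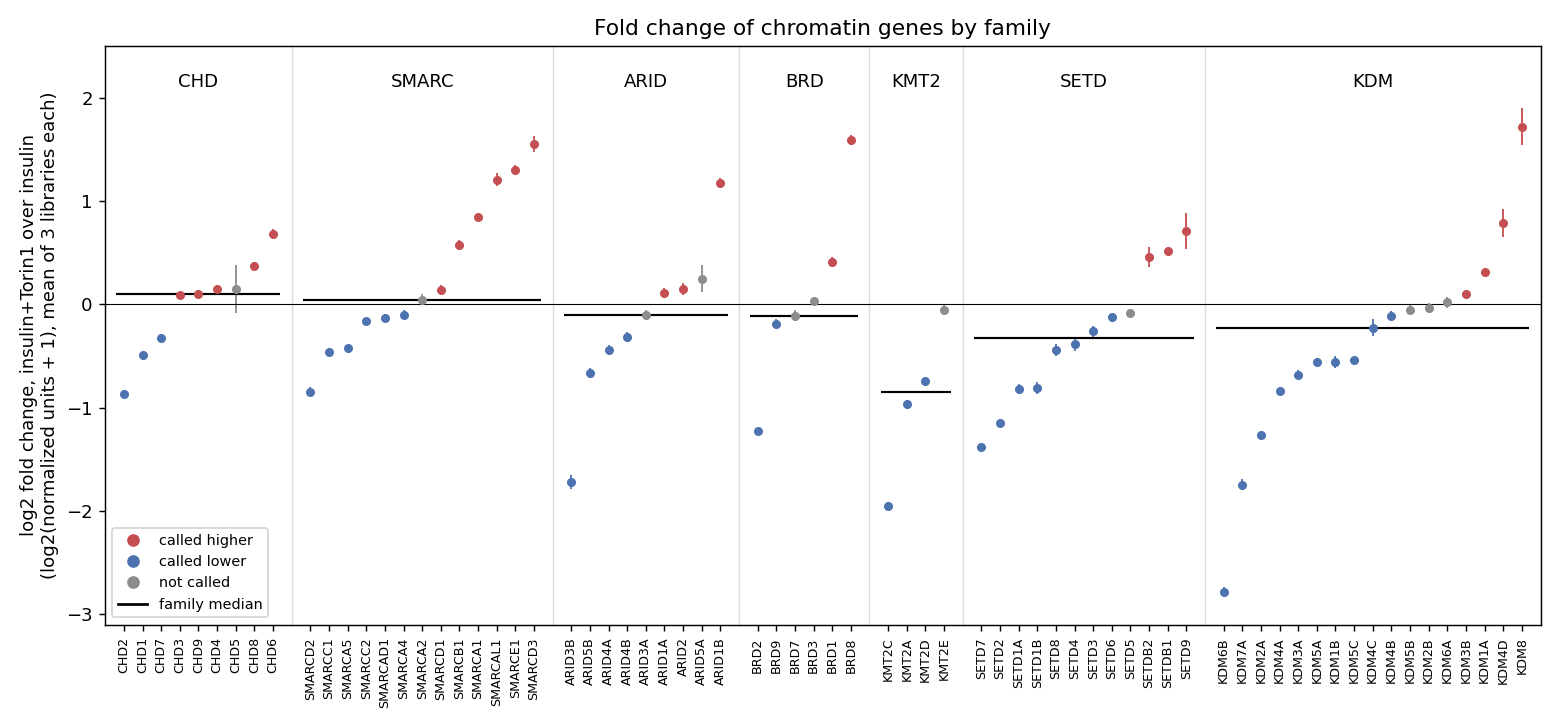
Log2 fold change (Torin1 over insulin, on log2 of units + 1) of the tested genes but 1, 1 point per gene with its SE as a bar, grouped by family; the black line is the median over all tested genes of the family. The KMT2 genes all lie below 0 and the BRD, SMARC and ARID genes spread to both sides.

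The families differed in balance. The KMT2 family had the lowest median, -0.85 over 4 genes, with 3 called lower and 0 higher. SETD followed at -0.32 (8 lower and 3 higher of 12) and KDM at -0.23 (10 lower and 4 higher of 17). The medians of these 3 families stayed below 0 with both other scalings. ARID (median -0.10, 4 lower and 3 higher of 9) and BRD (-0.11, 3 lower and 2 higher of 7) lay nearer to 0, and both medians turned positive with equal totals, to 0.02 and 0.01. SMARC had as many genes higher as lower (6 and 6 of 13, median 0.04), and CHD had 5 higher and 3 lower of 9 (median 0.10). Over all tested genes 43.4% were higher and 42.5% lower. The families were not tested against each other or against these shares.

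The COMPASS complexes place methyl groups on lysine 4 of histone H3, and 5 of their methyltransferases were among the 73 genes. KMT2B was not among the 73 genes. KMT2A, KMT2C, KMT2D, SETD1A and SETD1B were all called lower and all 5 passed the test beyond 1.5-fold, with a median of -0.82. Among all tested genes 42.5% were called lower and 22.5% were lower beyond 1.5-fold. The median was -0.69 with quantile normalization and -0.70 with equal totals, and all 5 were called lower in both. Whether each of the 5 stayed beyond 1.5-fold in those scalings is not given here. Among all 71 tested chromatin genes, those lower beyond 1.5-fold numbered 16 as deposited, 13 with equal totals and 10 with quantile normalization. KMT2C, an enhancer-associated enzyme, had 6320, 6588 and 6364 units with insulin and 1676, 1651 and 1664 units with Torin1. No Torin1 library came near an insulin library, and the mean fell 3.86-fold (log2 fold change -1.95, SE 0.03, limma adjusted p = 3.32e-23). KMT2A, the founding member of the family and a target of leukaemia translocations, had 5824, 5931 and 5827 units against 2941, 3022 and 3061 (log2 fold change -0.96). KMT2D, the close relative of KMT2C, had 5707, 5620 and 5315 units against 3162, 3394 and 3398 (log2 fold change -0.74). Both groups of libraries stood well apart for each gene.

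SETD1A and SETD1B are the catalytic subunits of the complexes responsible for much of the trimethylation of lysine 4. SETD1A had 4101, 3634 and 3439 units with insulin and 2035, 2132 and 2141 with Torin1 (log2 fold change -0.82, SE 0.05). SETD1B had 1119, 1147 and 974 units against 596, 623 and 624 (log2 fold change -0.81, SE 0.06). The lowest insulin library of each was above every Torin1 library. KMT2E, a relative without established methyltransferase activity, had 823, 840 and 769 units against 762, 786 and 794. Its groups overlapped, it was not called (log2 fold change -0.05, limma adjusted p = 0.323), and its direction turned with both other scalings.

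The remaining SETD genes include enzymes for other substrates. SETD2, which trimethylates lysine 36 of histone H3 in transcribed genes, had 4755, 5111 and 4700 units with insulin and 2232, 2207 and 2137 with Torin1 (log2 fold change -1.15). SETD7, which methylates histone H3 and many non-histone proteins, had the largest fall of the family, from 4726, 4977 and 5226 units to 1940, 1863 and 1942. Its mean fell 2.60-fold (log2 fold change -1.38, SE 0.04, limma adjusted p = 1.08e-19). In SETD2 and SETD7 the Torin1 libraries lay within a narrow range far below the insulin libraries. Smaller falls were called for SETD8 (RefSeq symbol KMT5A, the monomethyltransferase of lysine 20 of histone H4) at -0.44, SETD4 at -0.39, SETD3 (an actin histidine methyltransferase) at -0.26 and SETD6 at -0.13. SETD5, at -0.08, was not called as deposited, and it was called higher with quantile normalization (0.22, limma adjusted p = 2.87e-05).

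SETDB1 and SETDB2, which methylate lysine 9 of histone H3 and serve in silencing, went the other way. SETDB1 had 1233, 1231 and 1212 units with insulin and 1758, 1706 and 1780 with Torin1, with no overlap (log2 fold change 0.51, SE 0.04). SETDB2 rose from 222 ± 35.3 to 303 ± 14.1 units (mean ± SD, n = 3 each; log2 fold change 0.46). SETD9, the weakly expressed member, rose from 48.0 ± 6.24 to 80 ± 16.7 units (log2 fold change 0.71), and it was not called with quantile normalization (0.32, limma adjusted p = 0.0951). SETDB2 and SETD9 overlap other genes, given below, and the counting strand is not given in the sources used here.

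Among the demethylases, the amine oxidases of the LSD class split: KDM1A was called higher and KDM1B lower. KDM1A, which removes mono- and dimethylation from lysine 4, had 1553, 1610 and 1619 units with insulin and 2008, 1913 and 2008 with Torin1 (log2 fold change 0.31, SE 0.04). KDM1B fell from 975 ± 70.7 to 662 ± 57.1 units (log2 fold change -0.56). Of 15 Jumonji (JmjC) demethylases, iron-dependent oxygenases, 9 were called lower and 3 higher, with a median of -0.23. Beyond 1.5-fold, 5 of these were lower and 1 was higher. The JmjC shares called lower were 60% and, beyond 1.5-fold, 33.3%, where 42.5% and 22.5% of all tested genes were.

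KDM6B, a demethylase of lysine 27 of histone H3 that is known as an inducible gene, fell the most of all 71 genes. It had 2641, 2388 and 2411 units with insulin and 347, 370 and 359 with Torin1. The mean fell 6.89-fold (log2 fold change -2.79, SE 0.05, limma adjusted p = 7.84e-23), and no libraries of the groups overlapped. Its X-linked relative KDM6A, which acts on the same residue, had 1085, 961 and 1003 units against 1011, 1098 and 978. KDM6A was not called as deposited (log2 fold change 0.02, SE 0.05), its groups overlapped, and it was called higher with both other scalings, as given above.

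KDM7A, a demethylase of lysines 9 and 27, had 2103, 2209 and 2172 units with insulin and 608, 699 and 630 with Torin1 (log2 fold change -1.74). KDM2A, a CpG-binding demethylase of lysine 36, had 4947, 4842 and 4420 units against 1951, 1974 and 1968 (log2 fold change -1.27). Both fell in every Torin1 library. The lysine 9 and 36 demethylase KDM4A (log2 fold change -0.84) and the lysine 9 demethylase KDM3A (-0.68) completed the 5 that fell beyond 1.5-fold. KDM5A and KDM5C, which demethylate lysine 4, fell by 0.56 and 0.54 on the log2 scale. KDM5B, of the same class, was not called, with 1646 ± 87.8 and 1587 ± 10.1 units, and was called higher at 0.22 with quantile normalization. KDM2B, the paralogue of KDM2A, was not called either (log2 fold change -0.04). KDM4B and KDM4C lay at -0.11 and -0.23 and KDM3B at 0.10.

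The demethylases that rose beyond or near 1.5-fold had low levels. KDM8 had 26, 23 and 23 units with insulin and 88, 77 and 79 with Torin1 (log2 fold change 1.72, SE 0.18). KDM4D had 72, 68 and 64 units against 104, 134 and 118 (log2 fold change 0.79, SE 0.14). In both, each Torin1 library was above each insulin library, and the constant of 1 unit added before the logarithm lowers their fold changes.

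The BRD family held large changes in both directions. BRD2, a BET protein (the readers of acetylated histones targeted by BET inhibitors), had 17367, 16667 and 16729 units with insulin and 7167, 7309 and 7187 with Torin1. The mean fell 2.34-fold (log2 fold change -1.23, SE 0.03, limma adjusted p = 5.23e-21). The BET protein BRD3 was not called as deposited, though it was with both other scalings, and its groups overlapped, with 1542 ± 43.6 and 1578 ± 51.7 units (log2 fold change 0.03, limma adjusted p = 0.448).

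BRD8, a subunit of the TIP60 acetyltransferase complex, rose the most among the bromodomain genes. It had 634, 656 and 724 units with insulin and 2012, 1991 and 2039 with Torin1, a 3.00-fold rise in the mean (log2 fold change 1.59, SE 0.05, limma adjusted p = 7e-19). BRD1, a partner of histone acetyltransferases, rose by 0.41. The BAF subunit BRD9 lay at -0.19, a call that both other scalings ended, and the PBAF subunit BRD7 lay at -0.11 and was not called.

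**Figure D2:**
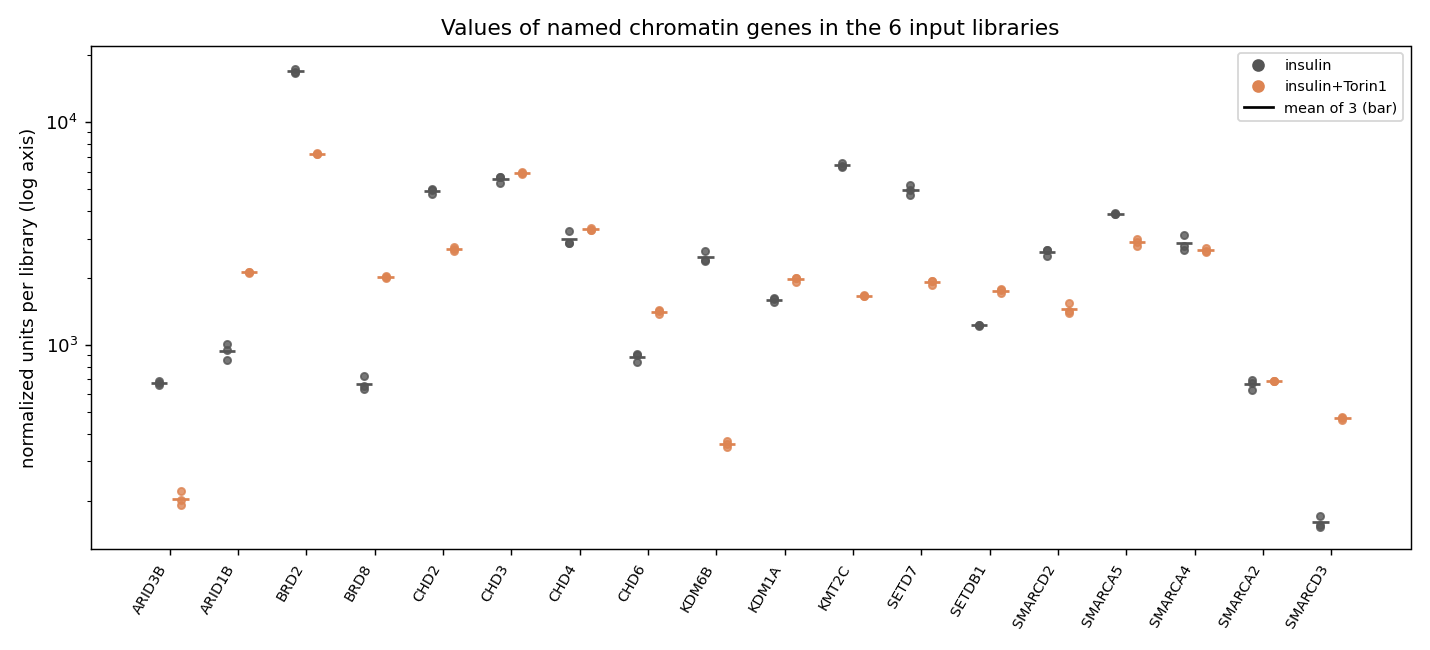
Normalized units (log axis) in each of the 3 insulin and 3 Torin1 input libraries for the genes named by rule in each family, where each point is 1 library and the bar the mean of 3. KDM6B and KMT2C show the widest downward gaps and BRD8 a wide upward gap, while the SMARCA2 and SMARCA4 points overlap.

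The BAF and PBAF complexes (the mammalian SWI/SNF remodellers) did not move one way. Of 14 subunits in these families, 7 were called higher and 5 lower (50% and 35.7%), with a median of 0.08. Over all tested genes the shares were 43.4% and 42.5%. The engines themselves changed little. SMARCA4 (BRG1) had 3111, 2771 and 2682 units with insulin and 2712, 2618 and 2649 with Torin1. Its groups overlapped, and its call (log2 fold change -0.10, limma adjusted p = 0.0379) was lost without insulin replicate 1. With quantile normalization SMARCA4 was called higher (0.20, limma adjusted p = 9.96e-05). SMARCA2 (BRM) had 627, 699 and 676 units against 687, 687 and 688, with overlap and no call (log2 fold change 0.04, limma adjusted p = 0.446) except with equal totals.

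Alternative subunits of these complexes moved apart. The 3 SMARCD paralogues, of which a complex holds a single type, differed: SMARCD3 had 153, 156 and 170 units with insulin and 475, 461 and 468 with Torin1 (log2 fold change 1.55, SE 0.08). SMARCD2 had 2655, 2677 and 2511 units against 1424, 1397 and 1550 (log2 fold change -0.84, SE 0.04). SMARCD1 lay at 0.14, a call that was lost when a library was left out. Each SMARCD3 and SMARCD2 library sat apart from those of the other condition, in opposite directions. The DNA-binding ARID1 subunits, also alternatives, differed in size: ARID1B had 1008, 946 and 857 units against 2126, 2124 and 2099 (log2 fold change 1.18, SE 0.05), while ARID1A had overlapping groups of 1552 ± 62.6 and 1677 ± 76.0 units (0.11). The differences between paralogues were not tested.

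Of the subunits common to these complexes, SMARCE1 rose from 562 ± 20.6 to 1386 ± 64.0 units (log2 fold change 1.30) and SMARCB1, a tumour suppressor in rhabdoid tumours, rose by 0.58. The scaffold SMARCC1 fell by 0.46, and SMARCC2 lay at -0.16, turning to 0.14 and a call higher with quantile normalization. The PBAF subunit ARID2 lay at 0.15.

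Outside these complexes, the ISWI engines moved in opposite directions. SMARCA5 (SNF2H) had 3861, 3914 and 3875 units with insulin and 2999, 2888 and 2791 with Torin1 (log2 fold change -0.43, SE 0.03). SMARCA1 (SNF2L) had 1969, 1796 and 1913 units against 3457, 3402 and 3339 (log2 fold change 0.85, SE 0.04). SMARCAL1, an annealing helicase that acts at stalled replication forks, rose from 269 ± 6.43 to 623 ± 8.54 units (1.21). SMARCAD1 lay at -0.13 and turned to 0.16 and a call higher with quantile normalization.

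Of the 6 tested ARID genes outside BAF and PBAF, 4 were called lower and 0 higher, where 42.5% and 43.4% of all tested genes were. ARID3B, a DNA-binding protein of the ARID3 group, had 686, 676 and 660 units with insulin and 192, 201 and 220 with Torin1 (log2 fold change -1.72, SE 0.07, limma adjusted p = 1.64e-16). ARID5B, a partner of the demethylase PHF2, fell by 0.66, and ARID4A and ARID4B, which bind the retinoblastoma protein, fell by 0.44 and 0.31, the latter not called with quantile normalization. ARID3A (-0.10) and ARID5A (0.25) were not called.

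In the CHD family, the engines of the NuRD complex changed by small amounts. CHD3 had 5657, 5673 and 5332 units with insulin and 5842, 5942 and 5967 with Torin1 (log2 fold change 0.09), and CHD4 had 3236, 2879 and 2870 units against 3284, 3295 and 3350 (0.15). Their groups did not overlap, but the gap between them was narrow, and CHD3 lost its call when a library was left out. Fitted without limma's variance trend, neither was called (limma adjusted p = 0.0867 for CHD3 and 0.0582 for CHD4). CHD2 had 4951, 5001 and 4738 units against 2745, 2697 and 2631 (log2 fold change -0.86, SE 0.03), and its relative CHD1, which binds methylated lysine 4, fell by 0.49. CHD6 had 897, 909 and 836 units against 1424, 1428 and 1382 (log2 fold change 0.68, SE 0.05). CHD8, the autism-associated gene of the same class, rose by 0.37. CHD7, which is mutated in CHARGE syndrome, fell by 0.33 (not called with quantile normalization), CHD9 lay at 0.10, and the neuronal gene CHD5, at 23 to 39 units over the 6 libraries, was not called.

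Genes of the same complexes outside these families were read from lists given under the processing. Their counts stand beside 43.4% higher and 42.5% lower over all tested genes, and no list was tested against these shares. Among 16 tested BAF and PBAF subunits, 6 were higher and 8 lower (median -0.05). BCL11B had the largest rise there (log2 fold change 2.27) and BCL7B the largest fall (-1.27). Among 11 NuRD subunits 4 were higher and 7 lower, with MTA1 at 2.08 and GATAD2B at -2.30. These NuRD subunits covered a wide range, while the NuRD engines CHD3 and CHD4 lay near 0. Of 9 ISWI partners 2 were higher and 6 lower, led by BAZ2A (0.82) and CECR2 (-1.90). Of 25 subunits of INO80, SRCAP and TIP60, 14 were higher and 10 lower (median 0.23), with INO80C at 3.06 and INO80D at -2.65.

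Of 12 COMPASS core and partner subunits, 7 were lower and 5 higher (median -0.32), while the 5 methyltransferases named above were all lower. MEN1, the menin scaffold of the KMT2A complex, rose from 196 ± 20.1 to 918 ± 34.4 units (log2 fold change 2.23), and HCFC1 fell from 5467 ± 484 to 1862 ± 86.5 units (-1.55). Of 17 other lysine methyltransferases 12 were lower and 3 higher (70.6% and 17.6%, median -0.44), where 42.5% and 43.4% of all tested genes were. ASH1L fell the most there (-1.56) while SMYD2 rose (1.43). SETD8 belongs to that list under its newer symbol as well as to the SETD family. PRC2 was balanced and near the shares of all tested genes, with 4 of 9 higher and 4 lower (44.4% each), MTF2 at 1.03 and PHF1 at -2.24. Of 9 acetyltransferases 4 were higher and 5 lower (KAT2A 0.88 and KAT7 -1.52), and of 16 deacetylases and sirtuins 6 were higher and 8 lower (HDAC8 2.56 and HDAC4 -1.65). Of 8 tested further JmjC genes 4 were higher and 3 lower (MINA 2.15 and JMJD6 -1.74). Only the BAF and PBAF median changed sign with another scaling among these lists, to 0.04 and 0.07.

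The deposited m6A lists hold 1 set of sites per condition, with each site under 1 replicate, so replicate error of a site could not be computed. A site was given to a gene when it lay in the gene body on the gene's strand, on RefSeq's GRCh38.p14 positions. Few sites fall where a sequence table reaches, which covers 250 bases before to 50 after a gene's start. In it, 12 positions of 6 genes carried a site, and 5 of these positions lie within the gene body. Support is slight, with no more than 1 substituted read at 10 of the 12. They are shown to let the motif be seen in its surroundings in the H3 lysine 4 demethylases KDM5A, KDM5B and KDM5C, each 5′ to 3′ on the gene's strand, with the DRACH 5-mer in capitals.
KDM5A, chr12:389439-389459, minus strand, the only one found in both lists: actgggcaGAACTttggcggg
KDM5A, chr12:389449-389469, minus strand, Torin1 list: gagtcgttGGACTgggcagaa
KDM5A, chr12:389298-389318, minus strand, insulin list: cagcacggTAACTtccggaaa
KDM5B, chr1:202808400-202808420, minus strand, insulin list: tacaactcGGACTtgctgttg
KDM5C, chrX:53225388-53225408, minus strand, insulin list: gttgcaatGAACTattttctc
The first KDM5A site had 1 substituted of 14 reads in each list, the KDM5B site had 2 of 6 reads and the KDM5C site 2 of 32. The KDM5A sites in the Torin1 list and the KDM5C site lie ahead of the gene starts in the table and were not counted below.

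The 73 genes held 1082 sites in the insulin list and 631 in the Torin1 list. A site was found in 67 genes in the insulin list and in 67, not all the same, in the Torin1 list. CHD5 and SETDB2 had sites in the insulin list alone, and ARID3C and SETD9 in the Torin1 list alone. Of the tested chromatin genes 94.4% and 93.0% had a site, against 80.5% and 78.4% of all tested protein-coding genes. The lists do not draw evenly on their replicates: replicate 1 gave 588 of the insulin and 563 of the Torin1 sites, replicate 2 gave 440 and 16, and replicate 3 gave 54 and 52. Without insulin replicate 1 the insulin list held 494 sites, without insulin replicate 2 it held 642, and without Torin1 replicate 1 the Torin1 list held 68. Numbers of sites are therefore compared below mainly among sites listed under replicate 1. These differed in reads too, with medians on chromatin genes of 11 with insulin and 19 with Torin1. Over all replicate 1 sites the medians were 9 and 15 reads, and the part of this in the numbers of sites was not tested. Among replicate 1 sites the chromatin genes had 0.957 Torin1 sites for each insulin site, against 1.11 over all 50656 and 56298 of them. With all replicates the ratios were 0.583 and 0.658.

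Of the insulin sites, 338 were also in the Torin1 list, 31.2% (95% Wilson interval 28.5% to 34.1%), where 28.3% of all insulin sites were. Those 338 were 53.6% of the Torin1 sites (49.7% to 57.4%), where the share over all Torin1 sites was 43.1%. The intervals cover counting error only, and reads are not known to be independent molecules. Sites on chromatin genes also had more reads than all sites, at medians of 10 against 8 with insulin and 16 against 12 with Torin1. The part of this in the shared percentages was not tested. The tested chromatin genes had a median of 9 insulin sites, against 3 for all tested protein-coding genes, and 29.6% against 6.44% had 20 or more. They also had higher values (median 1404 against 448 units) and longer bodies (median 68.4 against 32.5 kb), and the part of these in the number of sites was not tested.

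**Figure D3:**
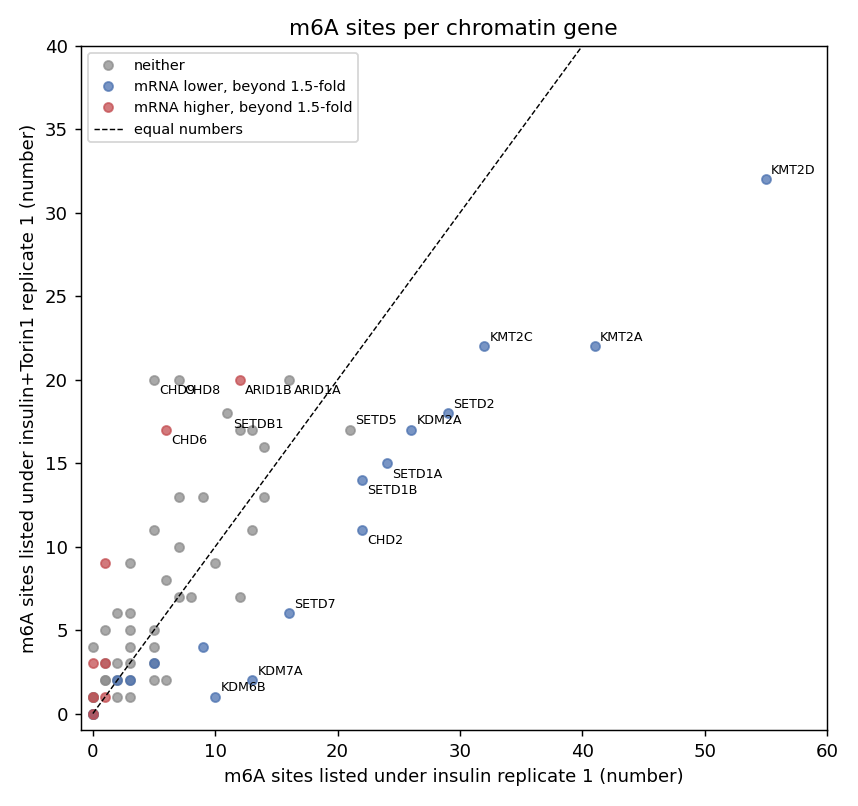
Number of m6A sites listed under replicate 1 in the insulin list (x axis) and in the Torin1 list (y axis), 1 point per gene with 1 gene not drawn, coloured by the test of mRNA beyond 1.5-fold, with a dashed line for equal numbers. KMT2D, KMT2A and KMT2C carry the most sites with insulin (55, 41 and 32) and fewer with Torin1 (32, 22 and 22).

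Families also differed in how the number of sites moved. Among replicate 1 sites, KMT2 genes went from 130 to 82 (ratio 0.631), SETD genes from 138 to 100 (0.725) and KDM genes from 129 to 108 (0.837). CHD genes went from 70 to 104 (1.49), BRD from 32 to 50 (1.56), SMARC from 24 to 40 (1.67) and ARID from 65 to 79. Among replicate 1 sites the first 3 families lay below the ratio over all sites and the other 4 above it. With all replicates every family had fewer sites in the Torin1 list. The ratios were then 0.392 for KMT2, 0.529 for SETD, 0.562 for KDM, 0.606 for SMARC, 0.656 for ARID, 0.799 for CHD and 0.912 for BRD. Over all sites the ratio with all replicates was 0.658, so that SMARC and ARID then lay below it. Of the KMT2 insulin sites, 6.33% (3.87% to 10.2%) fell within 2000 nt of the annotated gene end. Over all 73 genes, KMT2 included, 18.9% (16.7% to 21.4%) did. In the Torin1 list KMT2 had 8.60%, close to CHD (10.1%) and BRD (11.5%), against 18.4% over all 73 genes. Some genes of other families also had no insulin site there, such as CHD7 (0 of 28) and SETD7 (0 of 28).

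KMT2D (chr12:49018978-49060794) had the most sites, 96 in the insulin and 36 in the Torin1 list, of which 55 and 32 were under replicate 1. KMT2A (chr11:118436492-118526832) had 72 and 25, with 41 and 22 under replicate 1. KMT2C (chr7:152134925-152436003) had 60 and 25, with 32 and 22 under replicate 1. These H3 lysine 4 methyltransferases thus led both lists. SETD2 (chr3:47016436-47164840) followed with 48 and 20 sites (29 and 18 under replicate 1), and KDM2A (chr11:67119263-67258082) with 42 and 17 (26 and 17). With all replicates the same 5 genes had the 5 largest losses. Among replicate 1 sites KMT2D and KMT2A had the largest, followed by SETD2, CHD2 (22 to 11) and KDM7A (13 to 2). In the Torin1 list SETD5 (30 insulin and 24 Torin1 sites) and CHD8 (22 and 23) came next after the KMT2 genes.

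Sites were clustered along several of these long genes. A single stretch of 3000 nt in KMT2A (chr11:118503685-118506684) held 33 of its 72 insulin sites, 45.8%, and 12 of its 25 Torin1 sites. In SETD2 a stretch of that length (chr3:47120461-47123460) held 29 of 48 insulin sites and 6 of 20 Torin1 sites. In KDM2A 26 of 42 insulin sites lay in a stretch of this length, and in KMT2D, whose sites are spread more widely, the densest one held 20 of 96. Exon and UTR annotation was not used here, so whether these stretches are single exons is not given.

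**Figure D4:**
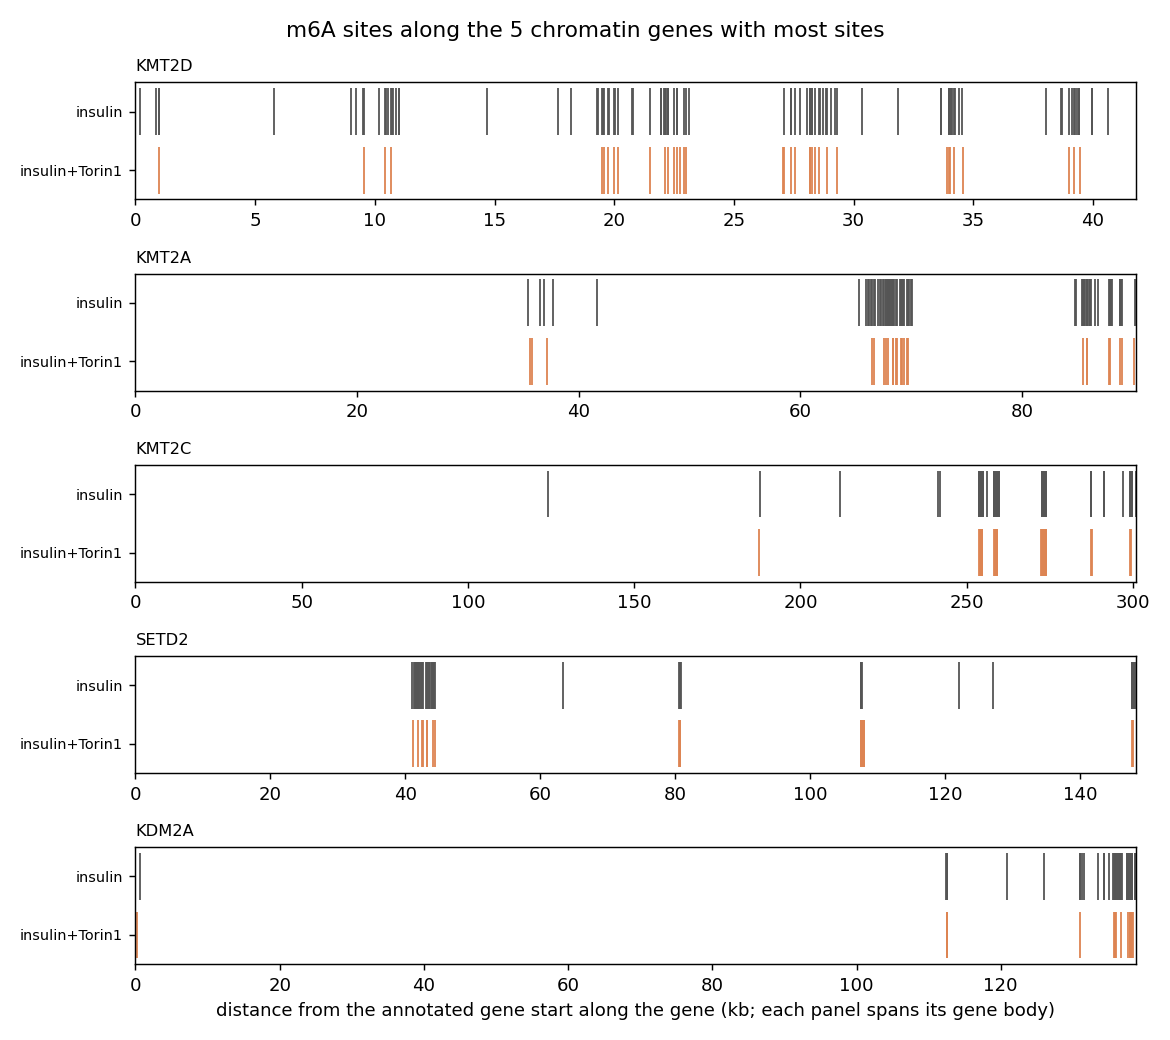
Position of m6A sites along the gene body, in kb from the annotated start on the gene's strand, for the 5 genes with the most sites, with 1 tick per site and a row for each list. The densest stretch holds 33 of 72 insulin sites in KMT2A and 29 of 48 in SETD2, and KMT2D sites are spread along the gene.

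With all replicates 13 genes had more sites in the Torin1 list and 52 fewer, while among replicate 1 sites 33 had more and 27 fewer. CHD9 (chr16:53054991-53327497) had the largest gain either way, from 9 to 22 sites (5 to 20 under replicate 1), while its mRNA lay at 0.10 on the log2 scale. With all replicates KDM4D (1 to 7 sites) and BRD8 (4 to 9) came next, both with more mRNA, and SMARCA5 (3 to 5), SMARCA1 (2 to 4) and KDM6A (8 to 10) tied behind them. Among replicate 1 sites the next gains were CHD8 (7 to 20), CHD6 (6 to 17), ARID1B (12 to 20) and BRD8 (1 to 9), 4 genes with more mRNA. KDM6B and KDM7A, with large falls in mRNA, went from 18 to 2 and from 21 to 4 sites. SMARCA5 had less mRNA with Torin1 and more replicate 1 sites, 1 to 5.

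The number of sites moved with the mRNA. The 16 genes lower beyond 1.5-fold had 309 replicate 1 sites with insulin and 171 with Torin1, and 14 of them had fewer and 0 more. The 8 genes higher beyond 1.5-fold had 21 and 54, with 6 having more and 0 fewer. The other 47 had 258 and 338, with 27 having more and 13 fewer. Across the 46 genes with at least 5 replicate 1 sites in either list, the log2 fold change in mRNA and the log2 ratio of sites (each number + 1) correlated at Pearson's r = 0.71 (Spearman's rho = 0.63). Across 4649 protein-coding genes chosen the same way r was 0.71 and rho 0.71. These are descriptions across genes, which are not independent replicates, and the chance of listing a site depends on reads and hence on mRNA level, so a change in methylation per molecule was not measured by the number of sites.

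**Figure D5:**
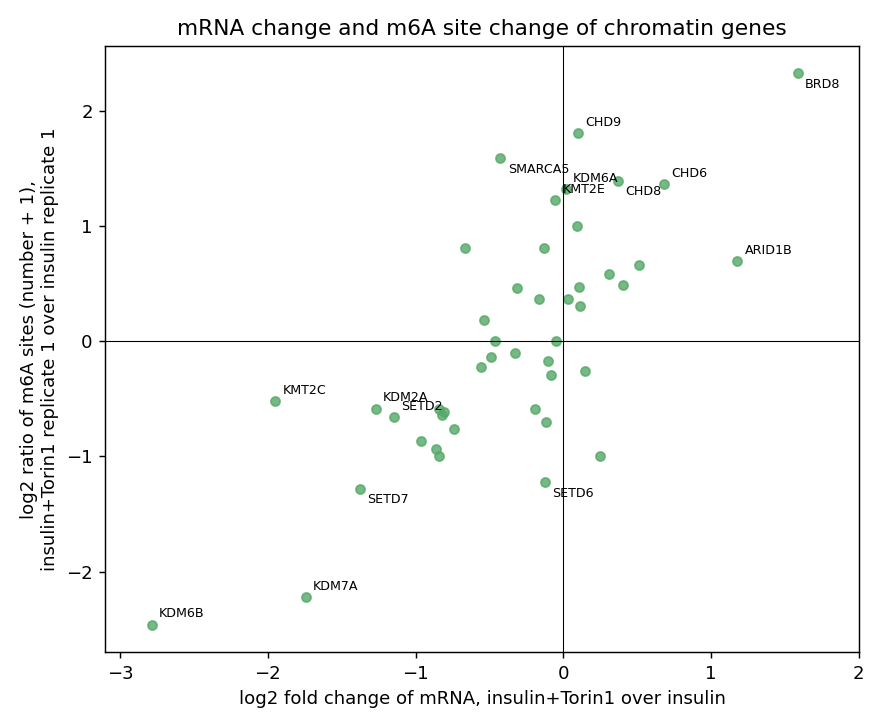
Log2 ratio of the number of replicate 1 m6A sites + 1 (Torin1 over insulin) against log2 fold change in mRNA for chromatin genes with at least 5 such sites in either list, 1 point per gene, with 1 gene not drawn. KDM6B lies lowest and BRD8 highest on both axes (r = 0.71 over 46 genes).

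The substituted fraction, the substituted reads over all reads at a site, was also compared. A site must be listed, with at least 1 substituted read, to have a fraction, and the lowest fraction it can have is 1 over its reads. The Torin1 list had more reads per site, with a median of 15 over all replicate 1 sites against 9 with insulin. The part of this difference in the fractions was not tested. Of replicate 1 sites with at least 20 reads in both lists, 87 lay in chromatin genes, with medians of 6.25% for insulin and 4.76% for Torin1. The fraction was higher with Torin1 at 31 (35.6%) and lower at 55, while over 7611 such sites of all genes 27.4% were higher. The chromatin genes therefore went in the same direction as the table as a whole.

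Among sites with at least 20 reads, the highest fraction in the insulin list was in CHD4 at chr12:6570390 on the minus strand (AAACT), near the gene end, with 9 of 26 reads substituted (34.6%, Wilson 19.4% to 53.8%) and 2 of 18 in the Torin1 list. A CHD7 site followed with 14 of 42 (33.3%), and 13 of 81 (16%) with Torin1. SMARCC2 at chr12:56162858 (GGACT) had 7 of 22 (31.8%) against 2 of 24. The fraction was lower with Torin1 in all 3, which had been picked for their high insulin values. In the Torin1 list CHD6 at chr20:41415361 (GGACT) led with 13 of 35 (37.1%, 23.2% to 53.7%), against 1 of 7 with insulin. The CHD6 site was listed under replicate 1 with Torin1 and under replicate 2 with insulin. KDM3B at chr5:138391185 (AGACA) had 8 of 28 against 1 of 8, and KMT2A at chr11:118506245 (GAACA) had 8 of 32 against 2 of 22. The fraction was higher with Torin1 in these 3 sites, which had been picked for their high Torin1 values. The KMT2A site lies in the dense stretch given above.

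By number of substituted reads, KDM5C at chrX:53194376 (AGACT) led with insulin, 15 of 50 against 8 of 66, and ARID1B at chr6:157207248 (AGACT) led with Torin1, 21 of 135 against 6 of 30. KMT2C at chr7:152148635 (GAACT) had 11 of 80 against 1 of 36. Reads at these sites were not scaled between the lists. Over replicate 1 sites of the chromatin genes, the median was 11 reads with insulin and 19 with Torin1. ARID1B rose in mRNA and had more reads with Torin1, KMT2C fell and had fewer, and KDM5C fell and had more. Whether depth at these sites went with the mRNA was not tested.

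The most frequent 5-mers on chromatin genes in the insulin list were GGACA with 130 sites (12%), GGACT with 110 (10.2%) and GAACT with 109 (10.1%). Those opening with GGAC made up 28.7% (26.0% to 31.4%) of the insulin sites, against 31.5% over all genes, and 30.3% of the Torin1 sites, against 32.9%. Among replicate 1 sites the shares were 31.1% and 30.7%, against 33.4% and 33.3%.

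The E-box CACGTG, read on both strands and identical to its reverse complement, is the textbook target of the MYC family and of TFEB, which mTOR signalling regulates. Within 250 bases before the start it was in 7 of the 63 chromatin genes in the table (11.1%), against 6.49% of 27305 promoters. Its surroundings are shown for 3 genes whose calls differ, KMT2D (lower), SETDB1 (higher) and KDM6A (not called as deposited), with the motif in capitals, from RefSeq.
KMT2D, chr12:49060898-49060927, minus strand: gggcttcgttccCACGTGtctgccctgctg
SETDB1, chr1:150926203-150926232, plus strand: ccagtctcttctCACGTGtgcccctggaag
KDM6A, chrX:44873081-44873110, plus strand: gtcaacaaaggtCACGTGaggcgtgcgggc
The remaining carriers were CHD9, KDM4B, KDM4C and SETD6. The match is a description of letters, and binding was not measured.

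BRD2 had 0 sites in both lists, as did the 300 kb on each side of it, which hold 20 protein-coding genes of the table, 3 of them at 1000 units or more. The surrounding stretch of chromosome 6, from 29 to 33 Mb, had 10 insulin and 19 Torin1 sites over 124 protein-coding genes, against 225 and 125 over 44 genes from 35 to 39 Mb, stretches chosen after the values were seen. The 0 of BRD2 therefore says nothing about that gene apart from its surroundings, and the cause was not tested. SMARCB1 also had 0 sites, with 31 insulin and 28 Torin1 sites within 300 kb.

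Opposite-strand sites were many at KDM2B, 16 in each list, of which 10 and 13 lay in the body of RNF34, against 4 and 3 on its own strand. SETD9, which overlaps MIER3, had 15 and 12 opposite-strand sites against 0 and 1 of its own. In all 21 of the genes overlap another protein-coding body, such as SMARCD3 with CHPF2, SETDB2 with SETDB2-PHF11 and SETD6 with CNOT1. In 9 genes RefSeq names pseudogenes, among them BRD7 (7), SMARCE1 (7), KMT2C (4) and SETD8 (3). Expression values of these genes are uncertain in so far as reads were shared, since the counting strand is not given in the sources used here.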

How the data were processed

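The build is hg38, per the submitters' processing notes, which list STAR, BWA 0.7.1, DESeq and DESeq2 1.22.2 with no roles. The deposited expression values are a score: the authors normalized and rounded them before deposit, as the file's values show, and they are not read counts. The m6A value is a fraction, substituted over all reads, deposited by the authors with 1 list per condition. limma 3.58.1 (R 4.3.3) was run on log2(value + 1) with a variance trend, for genes at 10 or more in 3 or more libraries, two-sided, Benjamini-Hochberg over all tested genes. A planned count test (edgeR) was not run, as the values are no counts. The members and lists were chosen with earlier results of these data known. Positions, promoters and windows come from RefSeq GRCh38.p14; the strand is from the promoter table for 63 genes and from most of their sites for 10. In promoter windows, 1668 of 1668 sites had the listed 5-mer. Named genes were, per family, the largest called rise and fall at a mean of 100 units or more, plus SMARCA2, SMARCA4, SMARCA5, CHD3 and CHD4, and others the results turn on. The other complexes' genes came from lists fixed by complex (BAF and PBAF, NuRD, ISWI, INO80, COMPASS, PRC2, other methyltransferases, acetyltransferases, deacetylases and JmjC genes). Alternatives were another pseudocount, no filter, equal totals, quantile normalization, no trend, a replicate block, each library left out, and for sites stricter reads and replicate 1 alone. The main fit did not pair the libraries by replicate number. The same-number correlations given below cannot settle whether libraries were prepared in pairs. Values of 1 member gene and 1 marker are not reported here, and both stay in the counts.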

Additional observations from a re-analysis of the deposited data

How the results depend on the processing

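Of 852 comparisons of a gene with its value under an alternative, 779 kept direction and call. Leaving out each library in turn gave 19 to 23 genes called higher, 35 to 38 lower, 7 to 8 higher beyond 1.5-fold and 15 to 16 lower beyond 1.5-fold. Without limma's variance trend fewer were called, 17 higher and 35 lower, and 7 and 15 beyond 1.5-fold. ARID1A, ARID2, CHD3, CHD4, CHD9, KDM4B, SMARCA4 and SMARCD1 lost their calls there, at limma adjusted p-values of 0.0582 to 0.2. With the replicate block there were 23 higher, 37 lower, and 7 and 15 beyond 1.5-fold, and the same-number correlations were -0.154, -0.005 and -0.078. With quantile normalization 10 genes were lower beyond 1.5-fold. Directions that turned were all of small changes, and the cause was not tested. With equal totals they were ARID3A 0.023, BRD7 0.014, KDM2B 0.089, KDM4B 0.012, KDM5B 0.074, KMT2E 0.072, SETD5 0.043 and SMARCA4 0.026 on the log2 scale. With quantile normalization they were ARID5A -0.13, CHD5 -0.16, KDM2B 0.066, KDM4B 0.024, KDM5B 0.22, KMT2E 0.031, SETD5 0.22, SETD6 0.0091, SMARCA4 0.20, SMARCAD1 0.16 and SMARCC2 0.14. Leaving out each library in turn moved SMARCA2 from -0.00015 (without insulin replicate 1) to 0.078, KDM6A from -0.030 (without Torin1 replicate 2, and -0.021 without insulin replicate 2) to 0.066, and CHD5 from -0.049 (without insulin replicate 3) to 0.32.

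For sites, requiring 3 substituted reads left 187 insulin and 117 Torin1 sites with 21.4% shared, 10 reads left 549 and 407 with 37.0%, and replicate 1 alone left 588 insulin sites with 34.9%. Leaving out a replicate gave 494 to 1082 insulin sites, 68 to 631 Torin1 sites and a share of 2.87% to 35.8%, the lowest without Torin1 replicate 1. Members with a strand in the promoter table, an alternative chosen after seeing the data, gave 925 and 546 sites with 31.4% shared. The planned edgeR and DESeq2 fits were not run because the values are not counts.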
